A study of Mus musculus with 5 samples.

Results

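The matrix proteases and their inhibitors are taken here as the protein-coding mouse genes whose symbols begin with Mmp, Timp, Adam or Adamts followed by a number. The rule used names only, no measured value, and found 80 genes among the 52029 of the table shared by 4 libraries: 23 Mmp, 4 Timp, 34 Adam and 19 Adamts genes. Mmp1a was kept among them, although GENCODE M21, used here for positions and lengths, lists it as a polymorphic pseudogene. All members but Adam34l were also in the separate table of the third co-culture library. RNA was sequenced from hepatobiliary organoids, self-renewing epithelial cultures grown here from wild-type mouse primary liver stem or progenitor cells, to find pathways by which liver endothelial cells act on progenitor survival and growth. The organoids alone (libraries M11 and M12) carried no treatment and were at passage 1, and the organoids co-cultured with liver endothelial cells (M9, M10 and the third library) were at passage 8. All were wild-type and taken at day 10 in one growth medium, which held EGF, heparin, nicotinamide, ECGS and the kinase inhibitor Y-27632. Passage and co-culture therefore cannot be told apart in any difference given here.

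Matrix metalloproteinases (MMPs) are secreted or membrane-bound zinc enzymes that cut collagens, laminins, proteoglycans and many cell-surface proteins, and most are made as inactive proenzymes. Tissue inhibitors of metalloproteinases (TIMPs) block their active sites, and TIMP3 also blocks several ADAM and ADAMTS enzymes. ADAMs are membrane proteins, some of which release the ectodomains of growth factors, cytokines and Notch receptors, and ADAMTSs are secreted relatives that act on proteoglycans, procollagens and microfibrils. In the liver these enzymes take part in the turnover of matrix around bile ducts and sinusoids, and MMP7, or matrilysin, is known as a product of injured or reactive biliary epithelium.

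The libraries held between 26466739 and 58853737 counts, and the members took between 0.14% and 0.255% of them. Whether libraries of a group stem from separate cultures is not in the labels, and p-values measure only the spread among these libraries, possibly a technical one. The edgeR test compared M9 and M10 with M11 and M12. The third library was described against M11 and M12 with no test, so both comparisons share the same control libraries. Biliary epithelial markers were abundant in every library (all 9 genes with counts, 11016 to 26974 CPM of the library total in sum, CPM being counts scaled to a common library size). The 12 endothelial markers summed to 1.56 to 2.17 CPM in co-culture and to 1.68 and 2.46 without it, and Clec4g was at 0 in all 5 libraries. By these markers the ranges of the co-culture libraries and the organoids alone overlapped. In such bulk libraries, fewer cells of a type and less RNA per cell cannot be told apart.

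Of the 80 members, 39 passed the low-count filter, and 3 of them were called, beside 2.24% of all genes tested. Mmp7, Adam8 and Adamts9 were lower in M9 and M10 at an edgeR adjusted p under 0.05, no member was higher, and 36 were not called. Over all 15899 genes tested, 1.25% were called lower and 0.994% higher. At an unadjusted p under 0.05, edgeR counted 18 of the 39 members, beside 17.5% of all genes. After adjustment DESeq2 called far more genes than edgeR, 1314 of all 15899. Among the members it called 3 higher (Mmp11, Timp3 and Adamts15) and 8 lower (Mmp3, Mmp7, Timp1, Adam8, Adamts2, Adamts7, Adamts9 and Adamts10). The log2 difference was negative for 25 of the 39 members with a median of -0.48, against 49.9% negative and a median of 0.00 for all genes tested. Mmp3 and Adamts2 had 0 counts in M9 and M10. Their bounds (-4.41 and -4.36) also lie below the members' median, so using them could not change it. Both co-culture libraries lay below both libraries of organoids alone for 19 members and above them for 8, and this held for 25.1% and 24.3% of all genes. A gene low in both groups could not pass the filter, so these counts describe the members that passed and not all 80. Members such as Mmp3, Adamts2 and Mmp2, with 0 to 6 counts in M9 and M10, could pass only through the organoids alone. Their negative sign was therefore fixed by the filter, and the numbers of negative and lower members partly reflect it. The same filter held for all genes tested.

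**Figure D1:**
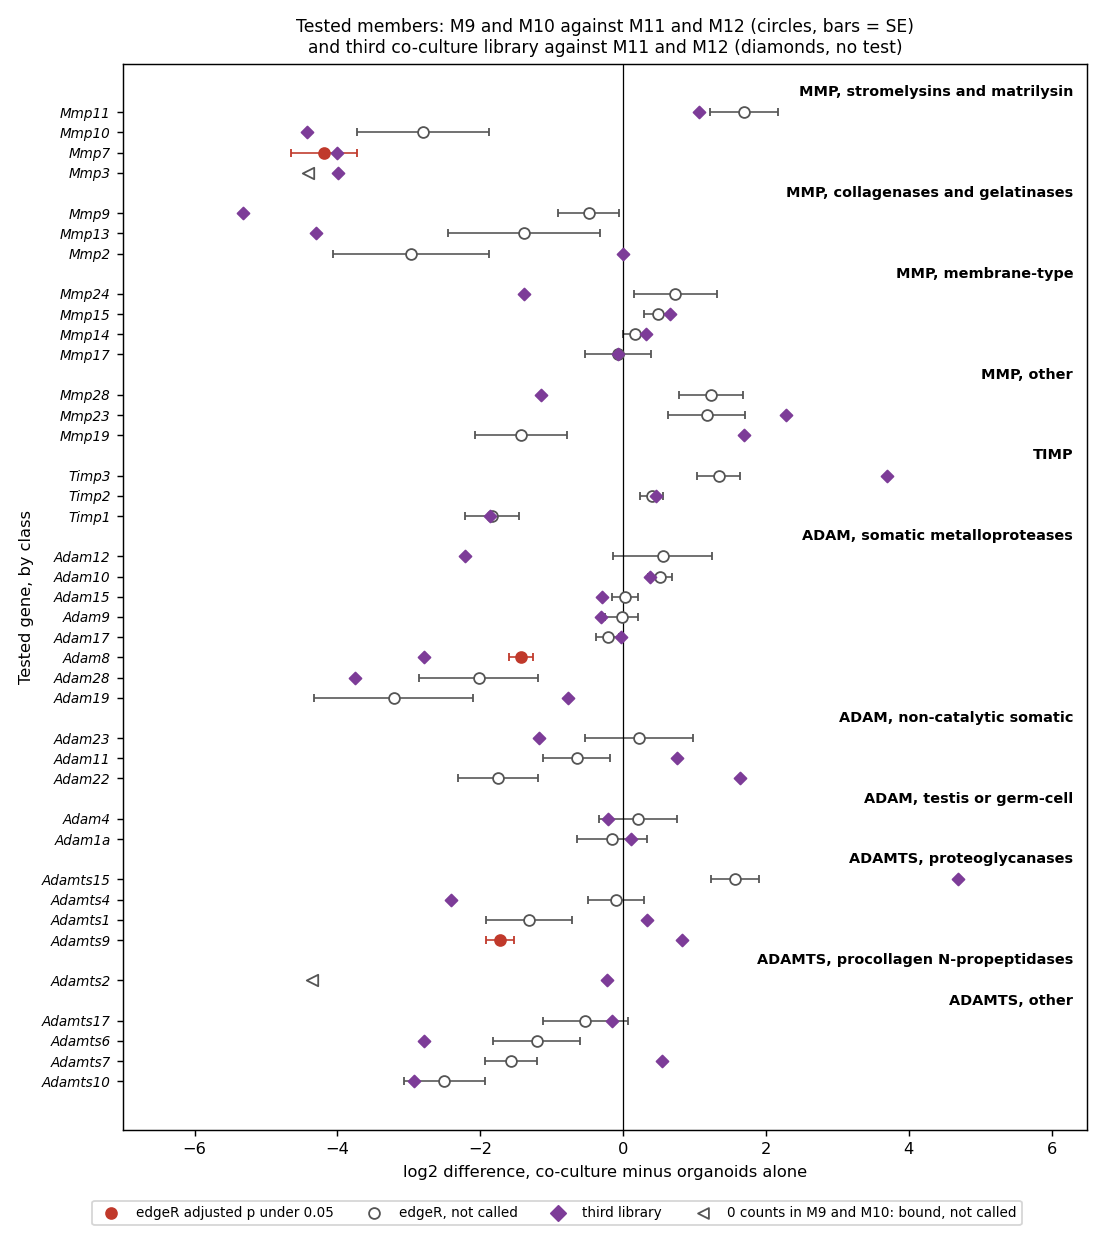
Log2 difference between co-culture and organoids alone (x axis) for each of the 39 tested members, ordered by class (y axis). Circles give M9 and M10 against M11 and M12 with the edgeR standard error as bars, red where the adjusted p was under 0.05, white triangles give the bounds of Mmp3 and Adamts2, and diamonds give the third co-culture library against M11 and M12 with a prior count of 2. The 3 red circles, Mmp7 (-4.19), Adam8 (-1.43) and Adamts9 (-1.72), lie left of 0, and the diamond of Adamts9 (0.82) lies to the right.

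Mmp7 showed the largest called difference of the family and sits in a cluster of 10 Mmp genes on chromosome 9, between positions 7272514 and 7699585 in GRCm38. The promoters of the cluster genes that passed the low-count filter are shown first, because they share short elements. The elements played no part in choosing these genes, but the filter used their counts. Each window holds the 130 bases before the start site on the plus strand, read 5′ to 3′ from RefSeq (GRCm38.p6), and capitals mark matches to the AP-1 motif TGANTCA and to the TATA box TATAAA. The windows lie at chr9:7691960-7692089 for Mmp7, chr9:7445692-7445821 for Mmp3, chr9:7502212-7502341 for Mmp10 and chr9:7272384-7272513 for Mmp13.
Mmp7: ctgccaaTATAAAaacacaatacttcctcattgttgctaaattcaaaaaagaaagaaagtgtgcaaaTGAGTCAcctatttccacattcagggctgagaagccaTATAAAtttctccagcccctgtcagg
Mmp3: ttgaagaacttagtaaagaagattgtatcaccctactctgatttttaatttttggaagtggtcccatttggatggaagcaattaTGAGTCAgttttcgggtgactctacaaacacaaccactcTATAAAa
Mmp10: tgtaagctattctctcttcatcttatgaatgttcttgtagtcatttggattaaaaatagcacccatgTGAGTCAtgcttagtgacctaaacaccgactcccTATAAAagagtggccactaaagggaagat
Mmp13: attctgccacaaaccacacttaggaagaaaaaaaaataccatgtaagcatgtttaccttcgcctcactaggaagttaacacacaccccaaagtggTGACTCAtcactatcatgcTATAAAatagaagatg

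In RefSeq promoters from 250 bases before to 50 after the start, searched on both strands, TGANTCA occurred in 8 of the 10 cluster genes (8 of 12 promoters, 66.7%), against 7.81% of all 32851 promoters. The centre of the match lay 60 bases before the start in Mmp7 and Mmp10, 43 in Mmp3 and 32 in Mmp13. TATAAA occurred in 9 of the 10 cluster genes (75% of promoters, against 13.6% of all). The centre of its nearest match lay 23 bases before the start in Mmp7, 26 in Mmp10, 4 in Mmp3 and 13 in Mmp13. All these distances rest on the annotated starts, so they may not be comparable between genes. The ETS motif AGGAAG was found in 66.7% of cluster promoters and 35.4% of all, and each motif was searched on its own, so matches may overlap. Outside the cluster no searched Mmp promoter held TGANTCA, and neither did the 4 Timp or the 10 Adamts promoters searched. Of 20 Adam promoters 5 did (Adam19, Adam1b, Adam20, Adam25 and Adam29). The pattern allowed any middle base, and the match read TGAATCA in Mmp20, Adam20 and Adam25 and TGAGTCA or TGACTCA in the other members. Mmp2, Mmp9, Mmp16, Mmp17 and Mmp19 had no promoter available and were not searched, so nothing is said of them. Promoters were found for 50 of the 80 members, 55 promoters in all. A match is a description of letters and not of a bound site.

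Mmp7, or matrilysin, lacks the haemopexin domain of most MMPs and cuts matrix proteins, syndecans and pro-defensins. Its level was 116 CPM in M11 and 125 in M12, against 9.48 in M9 and 3.72 in M10, with 7.46 in the remaining co-culture library. CPM of single genes are scaled over all 5 libraries. The groups did not overlap, and the 3 co-culture libraries lay between 3.72 and 9.48 CPM. The mean fell from 121 ± 6.49 to 6.60 ± 4.07 CPM in M9 and M10 (SD, n = 2 each), and the log2 fold change was -4.19 ± 0.46 (SE; edgeR adjusted p = 0.0203). In the third library the difference from the organoids alone was -4.00 on the log2 scale. Mmp7 (ENSMUSG00000018623) is the last gene of the cluster, at 7692090 to 7699585 (plus strand). The call was lost without M11 and without M12, where the log2 fold change was -4.24 and -4.13. In those fits few or no genes of any kind were called, so the loss is not particular to Mmp7. It was also lost without the low-count filter (edgeR adjusted p = 0.0833, log2 -4.18). With all 5 libraries, where edgeR called 2 genes in all, it was lost too (adjusted p = 0.0823, log2 -4.12).

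The other expressed genes of the cluster had fewer counts than Mmp7 in every library. Mmp3, stromelysin-1, had 38 counts in M11, 13 in M12 and 0 in each of the 3 co-culture libraries. Against a floor of 3 counts over M9 and M10 together it was at least 21.3-fold lower, but it missed the threshold (edgeR adjusted p = 0.082). Against the same floor in the third library it was at least 18.0-fold lower. Mmp10, stromelysin-2, had 66 and 14 counts alone, 9 and 5 in M9 and M10 and 0 in the third library, at least 28.2-fold lower there. M11 alone was high for Mmp10, and the log2 fold change in M9 and M10 was -2.80 ± 0.93 (edgeR adjusted p = 0.206).

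Mmp13, the main interstitial collagenase of mice, had 93 and 230 counts in the organoids alone, 135 and 11 in M9 and M10 and 13 in the third library. M9 lay between the organoids alone, so the groups overlapped (log2 fold change -1.39 ± 1.06, edgeR adjusted p = 0.576), and without M9 the log2 fold change was -4.14 and was called. The 9 cluster genes other than Mmp7 summed to 7.90 and 9.18 CPM of the library total in M11 and M12. They summed to 4.25 and 0.446 in M9 and M10 and to 0.272 in the third library. With Mmp13 also left out, the sums of the other 8 were 4.38, 1.30, 0.266, 0.139 and 0.0510 in the same order. Mmp20, an enamel protease, had 5 and 6 counts alone, 0 in M9 and M10 and 3 in the third library. Mmp8, the neutrophil collagenase, had 4 and 2 counts alone and 0 in co-culture, and Mmp1a and Mmp1b had none anywhere. None of the 8 tested protein-coding genes within 1 Mb of the cluster was called by edgeR, and DESeq2 called Birc3 lower. At an unadjusted edgeR p under 0.05 there were 2 of these 8, beside 17.5% of all genes. The log2 fold changes of the 8 in M9 and M10 ran from -0.99 (Birc3) to 0.38 (Birc2). In the third library Dync2h1 was at 2.11, Cfap300 at 1.85, Cep126 at 1.33 and Birc2 at 1.13. There Dcun1d5 was at 0.13, Tmem123 at 0.08, Yap1 at 0.00 and Birc3 at -0.50.

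**Figure D2:**
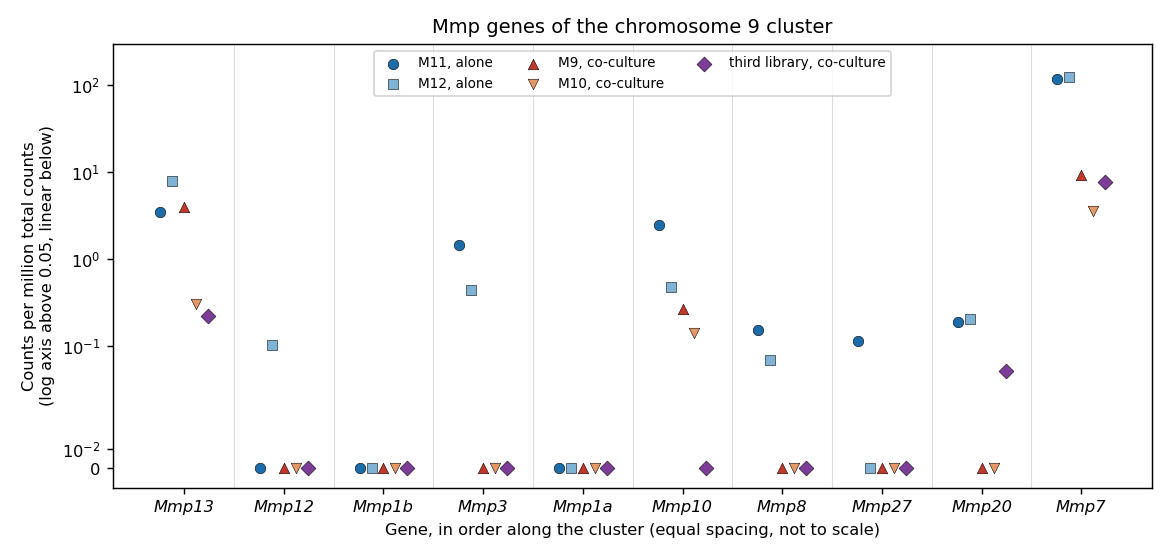
Counts as CPM of the library total (y axis, logarithmic above 0.05 and linear below) of the 10 Mmp genes of the chromosome 9 cluster (x axis, in genomic order and equally spaced) in each of the 5 libraries. Mmp7 is the highest of the 10 in every library, with Mmp13 nearest to it in M9 (135 counts against 319), and Mmp3 is at 0 in the 3 co-culture libraries.

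Markers of other cell types also differed between these libraries. The 12 mesenchymal markers summed to 28.0 and 84.0 CPM of the library total in the organoids alone and to 2.33, 3.09 and 8.27 in M9, M10 and the third library, with 7 of 12 tested, 3 of them called lower, and Lum at 0 in 4 libraries. The 6 neutrophil markers summed to 65.2 and 27.2 alone and to 13.6, 3.12 and 0.136 in co-culture, with Mpo and Elane at 0 in all 5 libraries. Cxcr2 and Ly6g were also at 0 in M11, which had the largest sum, and in the third library. In each library 3 to 5 of the 6 genes were at 0, so these sums rest on few genes. The 8 macrophage markers summed to 686 and 592 alone and to 338, 286 and 430 in co-culture, and Adgre1 and Clec4f, which define tissue macrophages and Kupffer cells, were at 0 in every library. Of the 5 tested macrophage markers, 2 were called lower in M9 and M10 and the other 3 had positive log2 fold changes. The median over the 5 was 0.47, so in M9 and M10 most of these genes ran against the sum. In the third library 4 of the 5 lay below the organoids alone and 1 above, with a median log2 difference of -1.32. The part of these cells in the levels of Mmp and Adamts genes was not tested.

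Mmp11, stromelysin-3, which furin activates inside the cell, stood at 4.82 and 4.86 CPM alone, 8.73 and 22.8 in M9 and M10 and 10.2 in the third library. All co-culture libraries were above the organoids alone and M10 was the highest, yet the difference in M9 and M10 missed the threshold (log2 1.70 ± 0.48, edgeR adjusted p = 0.153). DESeq2 called it, as did edgeR without the low-count filter. Of the gelatinases, Mmp2 had 17 and 23 counts alone, 0 and 6 in M9 and M10 and 43 in the third library (log2 fold change in M9 and M10 -2.97 ± 1.09, edgeR adjusted p = 0.242). Mmp9 had 65 and 54 counts alone, 53 and 51 in M9 and M10 (log2 fold change -0.48 ± 0.43, edgeR adjusted p = 0.638) and 0 in the third library, at least 41.9-fold below the organoids alone.

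None of the 4 tested membrane-type MMPs was called by edgeR or DESeq2, and none had an unadjusted edgeR p under 0.05. Mmp14, which cuts collagen at the cell surface and activates pro-MMP2, measured 166 and 170 CPM alone, 166 and 210 in M9 and M10 and 209 in the third library. The groups overlapped, with a log2 fold change of 0.16 ± 0.17 (edgeR adjusted p = 0.70). Mmp15, a relative of Mmp14, measured 54.4 and 63.6 CPM alone against 70.3, 95.8 and 92.7 in co-culture, with no overlap but no call (0.49 ± 0.20, edgeR adjusted p = 0.291). Mmp24 overlapped between groups at 1.33 to 3.62 CPM in the shared table and lay at 0.542 in the third library. Mmp16 had at most 9 counts in any library.

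Mmp28, epilysin, an MMP of epithelia and keratinocytes, ran one way in M9 and M10 and the other in the third library. It measured 6.74 and 15.0 CPM alone, 31.6 and 19.5 in M9 and M10 and 4.52 in the third library. The log2 fold change in M9 and M10 was 1.23 ± 0.45 (edgeR adjusted p = 0.24), beside -1.15 in the third library. Mmp23 stood at 0.667 and 0.689 CPM alone and at 1.04, 2.03 and 3.52 in co-culture (log2 1.17 ± 0.54 in M9 and M10, edgeR adjusted p = 0.347). Mmp19 had 21.1 and 27.7 estimated counts alone, 6 and 16.1 in M9 and M10 and 177 in the third library.

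The TIMP genes did not share a direction. Timp1, the inducible inhibitor that marks injured and fibrotic liver, measured 11.5 and 12.5 CPM alone, against 4.28 and 2.44 in M9 and M10 and 3.27 in the third library. All 3 co-culture libraries lay below the organoids alone, but the difference in M9 and M10 missed the threshold (log2 -1.84 ± 0.38, edgeR adjusted p = 0.0777). It passed in DESeq2, in edgeR without the low-count filter, and without M9 or M10.

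Timp3, which binds to the extracellular matrix and inhibits ADAM17 and aggrecanases, measured 57.1 and 97.4 CPM alone, 165 and 227 in M9 and M10 and 966 in the third library. The third library stood far above the rest, with 58803 counts of Timp3, the largest count of any member in any library. In M9 and M10 the log2 fold change was 1.34 ± 0.30 (edgeR adjusted p = 0.0938), and DESeq2 called it. Timp2, the cofactor with which Mmp14 activates pro-MMP2, measured 273 and 291 CPM alone and 336, 410 and 387 in co-culture. Its groups did not overlap, at a log2 fold change of 0.40 ± 0.16 (edgeR adjusted p = 0.281). Timp4 had 1 count in all 5 libraries together. Timp1 lies on chromosome X from 20870166 to 20874735, Timp3 on chromosome 10 from 86300372 to 86349506 and Timp2 on chromosome 11 from 118301069 to 118355740.

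**Figure D3:**
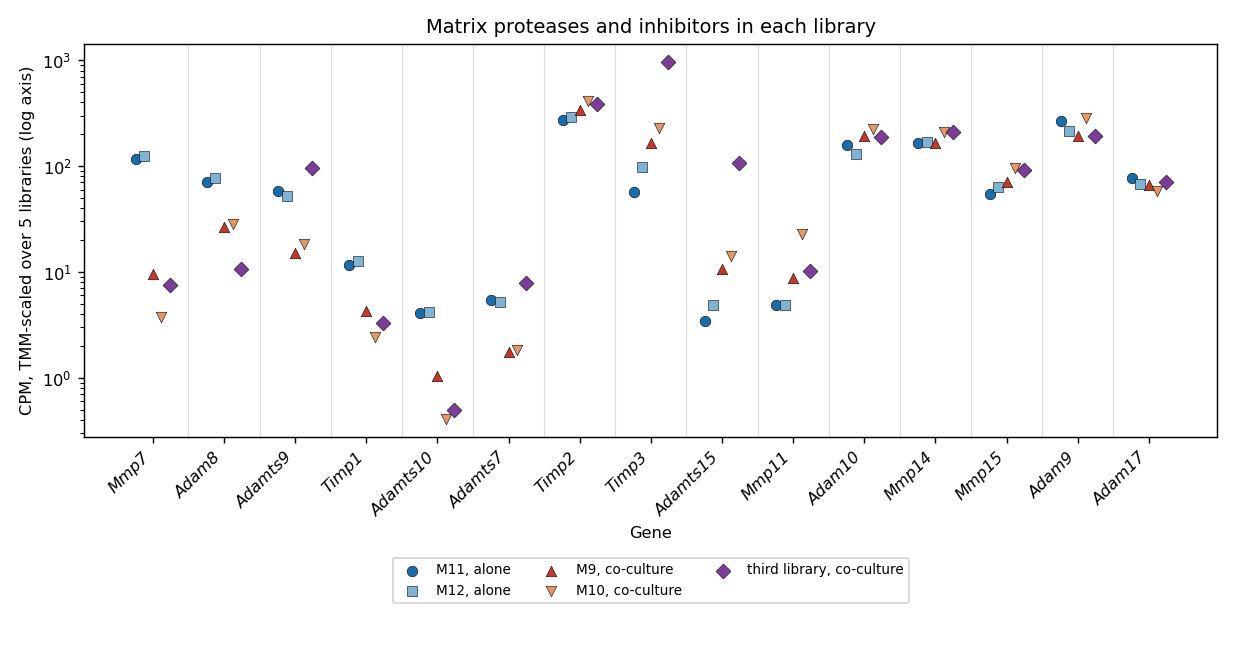
CPM scaled over 5 libraries (y axis, logarithmic) of 15 members (x axis) in each library, shown by marker and colour. Mmp7, Adam8 and Timp1 are lower in all 3 co-culture libraries than in both libraries of organoids alone, Timp3 and Adamts15 are higher in all 3 and highest in the third, and Adamts9 is low in M9 and M10 but high in the third library.

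Levels of different genes were compared per length, as CPM per kilobase of merged exons in GENCODE M21. The same lengths served all 5 libraries, although shorter isoforms would raise a gene's true level. Mmp7 was the most abundant Mmp gene in the organoids alone on this scale, at 109 and 117 CPM per kilobase, or 69.8% and 69.5% of the summed Mmp level. In co-culture its share was 13.7% and 4.84% in M9 and M10 and 10.4% in the third library, and Mmp14 ranked first in these 3 libraries.

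The summed length-scaled level of Timp genes divided by that of Mmp genes was 0.579 in M11 and 0.598 in M12, against 1.72 and 1.89 in M9 and M10 and 3.31 in the third library. With Mmp7 left out, the ratio was 1.91 and 1.96 alone, 1.996 in M9, 1.98 in M10, and 3.69 for the third library. Without Mmp7, M9 and M10 lay close to the organoids alone, and the third library was higher with and without it. Timp3 made up 7.78% and 11.9% of the summed Timp level alone, 18.2% and 20.5% in M9 and M10 and 53.5% in the third library. Timp2 was the most abundant TIMP in the other 4 libraries, at 74.1% to 77.8%. These sums describe transcripts and not active enzyme.

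**Figure D4:**
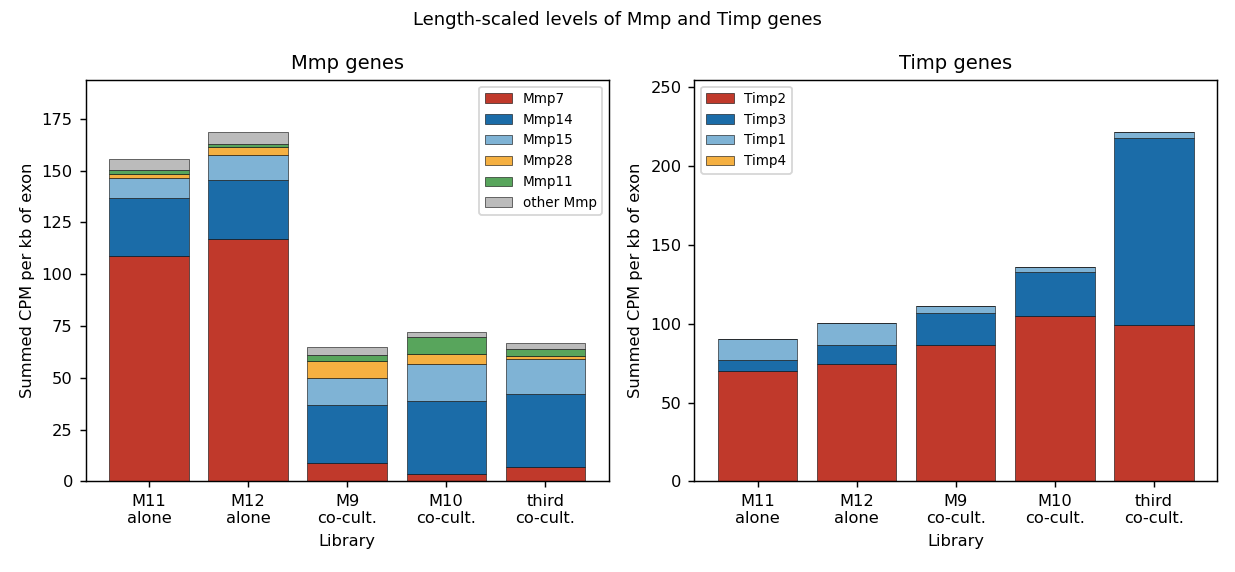
Summed CPM per kilobase of merged exons (y axis) of Mmp genes (left) and Timp genes (right) in each library (x axis), stacked by gene, with separate y scales. The Mmp7 segment takes 69.8% and 69.5% of the Mmp bar in the organoids alone and 4.84% to 13.7% in co-culture, and the Timp3 segment is largest in the third library (53.5% of the Timp bar).

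Among the ADAMs with an active protease, Adam8 was the one called. Adam8, a sheddase of leukocytes and of activated epithelium, measured 70.0 and 77.8 CPM alone, 26.8 and 28.1 in M9 and M10 and 10.6 in the third library. No co-culture library reached the organoids alone, and the third library was the lowest. The mean fell from 73.9 ± 5.48 to 27.5 ± 0.943 CPM in M9 and M10 (SD, n = 2 each), and the log2 fold change was -1.43 ± 0.16 (edgeR adjusted p = 0.0211), and the third library differed by -2.79. Adam8 (ENSMUSG00000025473) is on chromosome 7 (139978932 to 139992562, minus strand). The call was lost without M11 (log2 -1.50) and without M12 (log2 -1.35), where few or no genes of any kind were called. It was also lost with all 5 libraries (edgeR adjusted p = 0.317, log2 -1.75), where 2 genes in all were called.

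The most abundant sheddases were not called. Adam10, the alpha-secretase that also cuts Notch receptors and E-cadherin, measured 157 and 131 CPM alone and 191, 222 and 187 in co-culture. Its groups did not overlap, and its log2 fold change of 0.52 ± 0.17 was not called (edgeR adjusted p = 0.199). Adam17, the TNF and EGF-ligand sheddase, measured 77.5 and 67.0 CPM alone, 65.9 and 58.3 in M9 and M10 and 70.6 in the third library (log2 -0.22 ± 0.17, edgeR adjusted p = 0.573). Adam9, the ADAM with the highest level per kilobase in all 5 libraries, measured 269 and 214 CPM alone and 192, 285 and 194 in co-culture, with overlapping groups (log2 -0.02 ± 0.23, edgeR adjusted p = 0.977). Adam15 also overlapped, at 72.0 to 104 CPM.

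The scarcer ADAMs were uneven between libraries. Adam28 had 10 and 35 counts alone, 9 and 4 in M9 and M10 and 0 in the third library, at least 15.9-fold lower there. Adam19 had 25 estimated counts over the organoids alone, 3 and 0 in M9 and M10 and 14 in the third library. The ratio of alone to M9 and M10 was 10.4, with an exact 95% interval of 3.19 to 54.0 that covers counting error only (edgeR adjusted p = 0.219). Adam33, a gene best known from smooth muscle and airway mesenchyme, failed the filter, with 5 and 3 counts alone, 6 and 44 in M9 and M10 and 295 in the third library. Adam12 was high in M9, at 233 counts against 62 to 104 in the other libraries of the shared table and 35 in the third library.

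The ADAMs without protease activity bind partners at the cell surface, and Adam22 is a receptor of the LGI proteins of nerve. Adam22 had 26 and 50 counts alone, 12 and 15 in M9 and M10 and 252 in the third library, so the co-culture libraries lay on both sides of the organoids alone (log2 fold change in M9 and M10 -1.76 ± 0.56, edgeR adjusted p = 0.191). Adam11 showed the same split, at 1.74 CPM in M11 and more in M12, 1.49 and 0.958 in M9 and M10 and 3.27 in the third library (edgeR adjusted p = 0.552). Of 22 ADAMs known from testis or germ cells, only Adam1a and Adam4 passed the filter, and neither was called (adjusted p = 0.911 and 0.892, edgeR). Adam1b had at most 5.36 estimated counts in the shared table and 49 in the third library, Adam5 at most 8 and 21, and Adam21 had 4 to 14. The germ-cell genes Adam24, Adam25, Adam20 and Adam39, neighbours on chromosome 8, had 0 counts in all 5 libraries.

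Adamts9 was the ADAMTS that edgeR called, and the third library went the other way. Adamts9, a versican- and aggrecan-cutting protease that is also needed for ciliogenesis, measured 58.1 and 51.7 CPM alone, 15.0 and 18.4 in M9 and M10 and 96.6 in the third library. M9 and M10 lay below the organoids alone and the third library above them. The mean fell from 54.9 ± 4.48 to 16.7 ± 2.41 CPM in M9 and M10 (SD, n = 2 each), and the log2 fold change was -1.72 ± 0.19 (edgeR adjusted p = 0.0208), whereas the third library differed by 0.82. Adamts9 (ENSMUSG00000030022) is on chromosome 6 (92772699 to 92943492, minus strand). With all 5 libraries in one edgeR fit, which called 2 genes in all, the log2 fold change was -0.34 (adjusted p = 0.898). The call was also lost without M11 (log2 -1.63) and without M12 (log2 -1.80), where few or no genes of any kind were called.

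Adamts15, another proteoglycanase, was a minor ADAMTS transcript in the organoids alone and ranked first per kilobase in M10 and the third library. It measured 3.41 and 4.89 CPM alone, 10.5 and 14.1 in M9 and M10 and 106 in the third library. Every co-culture library was above the organoids alone, and the third library was far above all others. The log2 fold change in M9 and M10 was 1.56 ± 0.34 (edgeR adjusted p = 0.0846; called by DESeq2), beside 4.68 in the third library. Its share of the summed Adamts level per kilobase was 3.83% and 4.71% alone, 20.6% and 26.7% in M9 and M10 and 50.4% in the third library. Adamts15 is on chromosome 9 (30899155 to 30922452, minus strand), apart from the Mmp cluster.

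Of the 19 Adamts genes 9 were tested, and edgeR called Adamts9 alone among them. DESeq2 called 5, beside 1314 of all 15899 genes. The log2 fold change in M9 and M10 was negative for 8 of the 9, beside 49.9% of all genes, and the median was -1.32. Adamts2 among them, with 0 counts in M9 and M10, could pass the filter only through the organoids alone. In the third library 5 of 9 were below the organoids alone, beside 51.2% of all genes. Adamts10, which binds fibrillin microfibrils, measured 4.08 and 4.17 CPM alone against 1.04, 0.406 and 0.493 in co-culture (log2 in M9 and M10 -2.50 ± 0.57, edgeR adjusted p = 0.0961). Adamts7, a protease of cartilage oligomeric matrix protein, measured 5.41 and 5.24 CPM alone, 1.75 and 1.83 in M9 and M10 and 7.82 in the third library (-1.57 ± 0.36, edgeR adjusted p = 0.0992). Adamts10 was low in all co-culture libraries, and Adamts7 only in M9 and M10.

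Adamts2, which removes the N-propeptide of fibrillar procollagens, had 11 and 38 counts alone, 0 in M9 and M10 and 38 in the third library. It was at least 20.5-fold lower in M9 and M10 against a floor of 3 counts over both (edgeR adjusted p = 0.0866). Adamts5, an aggrecanase, had 7 and 13 counts alone, 1 and 0 in M9 and M10 and 24 in the third library, and failed the filter. Adamts16 had 0 and 7 counts alone, 0 in M9 and M10 and 19 in the third library. The third library was close to or above the organoids alone for Adamts2, Adamts5 and Adamts16, unlike M9 and M10.

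Over the 39 members that passed the filter, the third library lay above the organoids alone for 15 and below for 24 (51.2% of all genes), with a median log2 difference of -0.22 against -0.03 for all genes. It was at least 2-fold higher for 6 members and at least 2-fold lower for 15, where 13.1% and 17.6% of all 14319 genes were. All 3 co-culture libraries were above both libraries of organoids alone for 7 of these 39 members (15.1% of all genes): Adam10, Mmp11, Mmp15, Mmp23, Timp2, Timp3 and Adamts15. They were below for 11 of the 39 (17.1% of all genes): Mmp3, Mmp7, Mmp9, Mmp10, Timp1, Adam8, Adam19, Adam28, Adamts6, Adamts10 and Adamts17.

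Of the 41 members that failed the filter, 13 had 0 counts in all libraries that list them, 22 had under 10 counts in each, and 6 reached 10 or more in some library (Adam33, Adam5, Adam1b, Adam21, Adamts16 and Adamts5). The 13 were 10 testis-type Adam genes, Mmp1a, Mmp1b and Adamts20. With 3 counts as the limit of a library, genes at 0 were not detectable at this depth.

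Genes that activate or oppose these enzymes were read from 6 fixed lists of 64 genes, of which 48 were tested. In M9 and M10, 1 was higher and 4 were lower at an edgeR adjusted p under 0.05 (0.994% and 1.25% of all genes), and 18 passed at an unadjusted p under 0.05 (17.5% of all genes). In the third library 40 of the 48 lay below the organoids alone, beside 51.2% of all genes, with a median log2 difference of -0.55. Fewer list genes were called by edgeR without M11 or without M12, where few or no genes of any kind were called.

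The plasminogen system, whose product plasmin activates several pro-MMPs, had 2 of 9 tested genes called by edgeR, both lower. Serpine2, or protease nexin-1, an inhibitor of thrombin, plasmin and plasminogen activators, measured 42.6 and 60.5 CPM alone against 5.52, 3.48 and 1.91 in co-culture. It fell in M9 and M10 by a log2 fold change of -3.52 ± 0.33 (edgeR adjusted p = 0.0162). Plat, tissue plasminogen activator, measured 900 and 1276 CPM alone, 445 and 391 in M9 and M10 and 37.0 in the third library. Its log2 fold change in M9 and M10 was -1.38 ± 0.22 (edgeR adjusted p = 0.0424), and the third library was the lowest at -4.86.

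The proconvertases and sheddase regulators had no edgeR call among 12 tested genes, and DESeq2 called Pcsk6 higher. At an unadjusted edgeR p under 0.05 there were 4 of the 12, beside 17.5% of all genes. Furin, which activates membrane-type MMPs, Mmp11 and most ADAMs, measured 271 and 288 CPM alone and 325, 291 and 231 in co-culture (log2 0.14 ± 0.15 in M9 and M10, edgeR adjusted p = 0.71). Tspan14, a tetraspanin partner of ADAM10, measured 241 and 230 CPM alone and 170, 211 and 166 in co-culture (log2 -0.31 ± 0.16, edgeR adjusted p = 0.414).

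Of the other MMP regulators edgeR called 1 of 5 tested genes, and DESeq2 called Bsg as well, higher. Pzp, a broad plasma protease inhibitor of the alpha-2-macroglobulin family made by hepatocytes, measured 14.0 and 30.4 CPM alone, 2.47 and 3.66 in M9 and M10 and 151 in the third library. Its log2 fold change was -2.86 ± 0.46 in M9 and M10 (edgeR adjusted p = 0.0449) and 2.86 in the third library. The 10 hepatocyte markers summed to 1044 and 1918 CPM of the library total alone, 310 and 506 in M9 and M10 and 1920 in the third library, about the same as in M12. Of the 8 tested hepatocyte markers, 6 were below the organoids alone in both M9 and M10, 2 were above them, and in the third library 5 were above the mean of the organoids alone and 3 below. No hepatocyte marker was at 0 in all libraries. The part of hepatocyte-type cells in the level of Pzp was not tested.

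Among other matrix-degrading enzymes edgeR called 1 of 12 tested genes, Bmp1, and DESeq2 called Bmp1, Ctsl and Mep1a. Neither Bmp1 nor Pzp was called by limma-voom. Bmp1, the procollagen C-proteinase, measured 113 and 88.1 CPM alone, 39.6 and 48.4 in M9 and M10 and 73.8 in the third library (log2 -1.20 ± 0.20 in M9 and M10, edgeR adjusted p = 0.0468). Of 3 tested ADAMTS-like genes, which lack the protease domain, Adamtsl4, a fibrillin-binding protein, rose in M9 and M10. It measured 35.2 and 33.7 CPM alone, 79.8 and 91.3 in M9 and M10 and 25.5 in the third library (log2 1.31 ± 0.16 in M9 and M10, edgeR adjusted p = 0.0242).

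The 7 AP-1 subunits, whose motif was searched as TGANTCA, were all tested, and neither edgeR nor DESeq2 called one in M9 and M10. Of the 7, 2 had an unadjusted edgeR p under 0.05, beside 17.5% of all genes. Junb measured 359 and 628 CPM alone, 561 and 686 in M9 and M10 and 289 in the third library, and Jund 341, 534, 495, 514 and 262 in the same order. In the third library all 7 lay below the mean of the organoids alone, with a median log2 difference of -0.96. Fosl1, or Fra-1, named after its values were seen, had 688 and 1900 estimated counts alone, 1342 and 492 in M9 and M10 and 10 in the third library. Whether these levels bear on the Mmp genes was not tested.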

How the data were processed

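Per the labels' protocols, total RNA was depleted of ribosomal RNA and sequenced as stranded libraries. The submitters' processing notes list StringTie 2.1.3b, HISAT2 2.1.0, Trimmomatic 0.38, Bowtie2 2.3.4.1, FastQC 0.11.7 and the builds mm10 and GRCh37. The counting tool, annotation and strand setting were not given in the sources used here. Overlapping and antisense genes, and reads split between near-identical Adam copies, are uncertain.

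The authors deposited a table of estimated counts per gene for M11, M12, M9 and M10, per the file headers and values. Its columns give the group but not which sample. Estimated counts were rounded for testing. The remaining co-culture library has its own deposited table of whole-number counts on another annotation, per the file headers. The number in its column name differs from that of its record, which decided the sample. It was joined by symbol (30869 genes, 91.9% of its counts). The 10 columns of FPKM and TPM values were not used, and levels per kilobase use merged exons of GENCODE M21.

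The tests used edgeR 4.0.16 in R 4.3.3 (filterByExpr, TMM, robust quasi-likelihood test, Benjamini-Hochberg adjustment over all 15899 genes at 0.05). A run on simulated counts gave all genes a common dispersion and changed only genes with higher counts. It therefore says nothing about members with few counts. A standard error is the size of the log2 fold change over the square root of its F statistic. Log2 differences of the third library use a prior count of 2. Floors are 3 counts and intervals are exact binomial at 95%. Both cover counting error only. Alternatives were other scalings, filters, DESeq2 1.42.0, limma-voom (limma 3.58.1), each library left out and all 5 libraries. Positions are from GENCODE M21 (GRCm38). Protein sequences were not used here.

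The members and lists were chosen with earlier results of these data known. Named genes were called members, tested Timp genes, the 2 most abundant and the 2 most changed of each class, members that failed the filter but had 10 counts or more in a library, and per list up to 3 called or the 2 most abundant genes. Members outside this rule, such as Mmp8, Mmp10, Mmp16, Mmp20, Adam12, Adam15 and Adam17, were named after their values were seen. The 2 libraries of organoids alone and the pair M9 and M10 differed by more than counting noise (chi-square per degree of freedom 36.3 and 103).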

Additional observations from a re-analysis of the deposited data

How the results depend on the processing

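With RLE, upper quartile or total scaling and with limma-voom the called members were Mmp7, Adam8 and Adamts9 again, and the median log2 fold change of all genes was lowest under total scaling (-0.04). Total scaling called 3 list genes higher, the filter of 10 counts in every library of a group called 2, and limma-voom called 2 list genes lower. Without the low-count filter edgeR called 3 members higher and 8 lower, 1404 genes in all, and 7 list genes higher and 8 lower. Mmp7 was then not called (adjusted p = 0.0833). DESeq2 called 3 members higher and 8 lower, 1314 genes in all, and 6 list genes higher. With all 5 libraries, edgeR called 0 members higher and 0 lower (11 at an unadjusted p under 0.05), 2 genes in all, and 0 list genes higher and 0 lower. Leaving out 1 library gave 0 to 6 members higher, 0 to 9 lower (0 without M11 or M12, 9 without M9, 7 without M10), 0 to 2619 genes in all, and 0 to 10 list genes higher and 0 to 6 lower. A lone library in an arm was assumed to vary like the other group, and 13 and 11 members passed at an unadjusted p under 0.05 without M11 and M12. The third library lay below the organoids alone for 22 members under total scaling.

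Among the named members, uncalled values changed sign when 1 library was left out: Adam1a ran from -0.75 to 0.27 (0.14 without M11, 0.27 without M9), Adam4 from -0.13 to 0.66 (below 0 without M11 or M9), Adam9 from -0.32 to 0.24 (above 0 without M11 or M9), Mmp14 from -0.00391 (without M10) to 0.32 and Mmp24 from -0.12 (without M9) to 1.27. With all 5 libraries, Adam22 was at 0.30 and Mmp19 at 0.45. Mmp7 ranged from -5.02 to -3.66, Adam8 from -1.75 to -1.35 and Adamts9 from -1.86 to -0.34. The causes were not tested. No paired analysis was possible because the columns carry no replicate number of the titles. With 2 libraries a group, members under about 10 counts could not be tested at this depth.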
